A study of Mus musculus with 10 samples.

Results

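Many genes of skeletal muscle carry a single annotated 3′ end in the deposited count table, and for 2144 of them that end is represented by 1 full-length segment of 500 bp. These segments are the subject here. They were chosen by annotation and by their measured total: the gene had exactly 1 segment in the table, the segment was 500 bp long, and it held at least 50 counts summed over the 10 libraries. Of the 52423 segments in the table, 4812 were single 500 bp segments, and 2668 of those fell under the minimum, 1407 of them without a count. The members just inside it were Cxcl13, Lactb2 and Zfhx2 with 50 counts, and Hoxb7, Gpr27 and Ndor1 with 49 counts were just outside. All 2144 belonged to protein-coding genes, and every one of them passed into the comparison, because the minimum is the filter used there.

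Gastrocnemius (GAS) RNA came from wild-type male C57BL/6J mice with diet-induced obesity (DIO). The animals ate the high-fat diet D12492i from 9 weeks of age, for 9 weeks before any injection and then throughout. The labels give their age as 30 weeks, which is less than the start of the diet, these 9 weeks and the weeks of injection add up to. In the ASO group (5 libraries), an anti-miR-22 antisense oligonucleotide containing locked nucleic acids, RES-010 in the labels, was injected under the skin at 10 mg/kg once a week for 14 weeks, and the CTRL group (5 libraries) received 0.9% saline in the same way. No group without obesity and no group with a control oligonucleotide was analysed here, and the labels name no batch. The study's methods describe groups of animals, and each library is taken as 1 mouse. SD values below are therefore spreads between mice, and SE values are errors of the fitted log2 fold change.

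MicroRNAs are short RNAs that guide Argonaute proteins to complementary stretches of mRNA, most often in the 3′UTR, where pairing with the seed (bases 2 to 8 of the microRNA) lowers mRNA stability and translation. miR-22 is abundant in skeletal and cardiac muscle, and an antisense oligonucleotide that occupies it is meant to release its targets. A count on the last stretch of a 3′UTR reports how much polyadenylated mRNA holds that stretch, whether the mRNA ends there or runs further. It responds both to the amount of mRNA and to the choice of the 3′ end. Genes with a single segment leave no choice between counted ends, although further ends can be annotated that the table does not count.

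The seed match is the sequence through which miR-22 could act directly on these segments, so it is shown first. The mature mmu-miR-22-3p of RefSeq (table on GRCm38.p6) is given with its seed in capitals. miR-22 itself is not among the members, so its inhibition is not checked here.

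mmu-miR-22-3p: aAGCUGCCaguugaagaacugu

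The complement of that seed, GGCAGCT, occurred on the transcript strand of 104 members (4.85%), against 5.42% of the 9735 tested segments of 500 bp. The sites of 3 members that were higher and of 4 that were lower with the ASO follow, each with 15 bases before and 1 base after the match, which is in capitals. They are among those with the smallest p in each direction among matched members whose segment lies on no exon of another gene in the same direction, and coordinates of the match are on GRCm39.

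Tpcn1, chr5:120672506-120672512, minus strand: tcacagcctagcaggGGCAGCTa
Myom2, chr8:15183207-15183213, plus strand: agtgggctgagagagGGCAGCTg
Arhgap10, chr8:77977116-77977122, minus strand: ccgggcctgcccaccGGCAGCTg
Fsd2, chr7:81183302-81183308, minus strand: cagcaagcagaacttGGCAGCTt
Map3k3, chr11:106045893-106045899, plus strand: gggcacctggttctgGGCAGCTc
Mmp9, chr2:164797582-164797588, plus strand: ctcactgtggttgctGGCAGCTg
Dusp10, chr1:183807518-183807524, plus strand: agctgagggagagctGGCAGCTg

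The libraries held between 1606909 and 2116720 counts in CTRL and between 2239186 and 2632560 with the ASO, so every treated library was the deeper one. The members took 17.1% to 21.3% of these counts in CTRL (19.4% ± 1.57, SD, n = 5) and 19.6% to 21.9% with the ASO (20.8% ± 1.05, SD, n = 5), and the groups overlapped. In a principal component analysis of the members, CTRL 3 lay farthest to one side of the first component (33.5% of the variance) and ASO 5 farthest to the other. CTRL 3 also had the highest summed level of adipocyte markers (74226 CPM against 3489 to 17923 CPM in the ASO libraries) and of macrophage markers (10058 against 393 to 2777 CPM). Of the 12 skeletal muscle markers, 9 were counted, at a summed level of 277006 to 483703 CPM in CTRL and 439179 to 769262 CPM with the ASO, while Tnnt3, Mylpf and Ryr1 had no count, and none of the 12 was a member. Whether a marker without a count, here and below, lacks mRNA or was missed by the counting was not tested. CPM values here are scaled to the summed counts on the members, times a TMM factor over the members alone, in place of the whole library, so the markers, which lie outside the class, are given relative to it. All members span the same length, so their levels need no correction for length. Other differences between segments, such as base composition or overlap with other genes, were not corrected.

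With this scaling, 134 members were higher and 184 were lower in ASO-treated GAS at an adjusted p-value under 0.05 (edgeR quasi-likelihood test, Benjamini-Hochberg over all 12905 segments with at least 50 counts). That is 14.8% of the members, 6.25% higher and 8.58% lower, and the background over all segments tested was 34.7%, with 5.84% higher and 28.9% lower. The median log2 fold change of the members was -0.02, with quartiles at -0.42 and 0.28. Over all segments tested the median was -0.28. The scaling takes the members as its reference and so brings their median near 0. Both medians and the shares called depend on that choice. The 5 treated libraries lay entirely above the 5 control libraries for 88 members and entirely below for 106, together 9.05% of the members, where 25.5% of all segments tested did not overlap. Because the adjustment runs over the whole table, the largest unadjusted p among the called members was 0.017, and 520 members had an unadjusted p under 0.05. The adjusted p therefore limits the share of false calls over all segments tested. Among the members alone, where a smaller share was called, that share can be larger.

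The other kinds of segment, in the same fit, had other balances. Most distal segments of genes with several were called higher 281 times and lower 191 times among 2973 (median 0.10), and their upstream segments 180 and 3286 times among 6926 (median -0.81). Shorter single segments were called higher 159 times and lower 65 times among 855, with a median of 0.21. These differences between kinds were not tested. The split of the members themselves depended on the scaling, with 409 higher and 94 lower when the TMM factors were taken over all segments tested, which moved the members' median to 0.23, and 84 higher and 227 lower with plain member totals, where the median was -0.12. Without ASO 5, 79 members were higher and 124 were lower, and without CTRL 3 the counts were 109 and 141. Changes below are relative to the class.

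**Figure D1:**
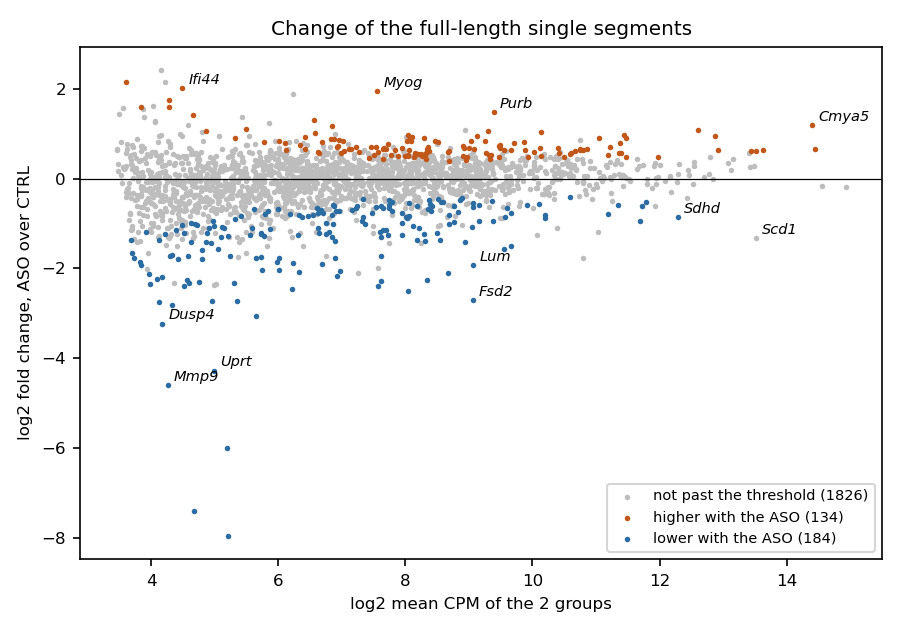
Log2 fold change of each of the 2144 members (ASO over CTRL, y axis) against the log2 of the mean of both group means in CPM (x axis), with 134 members called higher in orange, 184 called lower in blue and the others in grey. Falls reach further than rises, mostly at low levels, and the 3 points below -5 are Gm69672 and 2 members without a count in any ASO library, 4930571K23Rik and 1700029F12Rik.

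Among called members whose groups did not overlap and which averaged at least 10 counts in a library, the largest rises included regulators of muscle genes and a subunit of the receptor at the neuromuscular junction. Myogenin (Myog, chr1:134219787-134220286, plus strand), the transcription factor that drives myoblasts into terminal differentiation, was at 57.3, 72.7, 74.7, 88.2 and 96.3 CPM in CTRL 1 to 5 and 189, 201, 457, 381 and 269 CPM in ASO 1 to 5. Every treated library was above every control (log2 fold change 1.95 ± 0.27 (SE), adjusted p = 0.00017). Purb (chr11:6417599-6418098, minus strand), a single-stranded DNA-binding protein that represses muscle structural genes and a reported target of miR-22, was at 423, 361, 398, 302 and 283 CPM in CTRL 1 to 5 and 1025, 1007, 805, 869 and 1238 CPM in ASO 1 to 5. The lowest treated library, ASO 3, was well above the highest control, CTRL 1 (log2 fold change 1.48 ± 0.17 (SE), adjusted p = 6.7e-05). Chrnb1 (chr11:69674862-69675361, minus strand), the β subunit of the muscle acetylcholine receptor, was at 277, 568, 342, 413 and 438 CPM in CTRL 1 to 5 and 797, 809.6, 1123, 727 and 813 CPM in ASO 1 to 5. Its groups did not overlap either, with ASO 3 above the other treated libraries (log2 fold change 1.07 ± 0.20 (SE), adjusted p = 0.0012). Leaving out any 1 library kept all 3 of these calls. Chrna1, another subunit of the acetylcholine receptor among the members, did not pass (log2 fold change 0.59, adjusted p = 0.33).

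The remaining rises of this kind were smaller or lower in level. Ifi44, an interferon-induced gene, went from 4.69 to 13.3 CPM in CTRL to 22.8 to 57.7 CPM in treated libraries (log2 fold change 2.02 ± 0.41 (SE), adjusted p = 0.0019). Wnt4, a secreted Wnt ligand, ranged over 34.7 to 77.7 CPM in CTRL and 78.1 to 199 CPM with the ASO (log2 fold change 1.31 ± 0.30 (SE), adjusted p = 0.0044). Eif4ebp2, which binds the cap-binding factor eIF4E and restrains translation, ranged over 1588 to 2076 CPM in CTRL and 2621 to 5553 CPM with the ASO (log2 fold change 0.97 ± 0.20 (SE), adjusted p = 0.0025). Prdm2, a histone methyltransferase, rose by 0.96 (adjusted p = 0.0024), Eloa, the transcription elongation factor elongin A, by 0.94 (adjusted p = 0.00073), and Prr12 and Lrrc75a by 1.17 and 0.92 (adjusted p = 0.0012 and 0.0083). The Eloa segment shares 302 bp with an exon of Gm13008 on the opposite strand, and the counting names no strand option, so its reads cannot be told apart from those of the partner. Exoc3l2, an exocyst-related protein, rose by 1.07 (adjusted p = 0.033), a call that was lost when ASO 2, ASO 3, ASO 5, CTRL 1, CTRL 3 or CTRL 4 was left out (adjusted p up to 0.072). The Lrrc75a and Exoc3l2 segments ended 2757 and 1100 bp before the last annotated end, and that of Lrrc75a shares 16 bp with an exon on the opposite strand. Gm57852 rose by 1.01 (adjusted p = 0.0027), and its whole segment lies on an exon of Zftraf1.

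**Figure D2:**
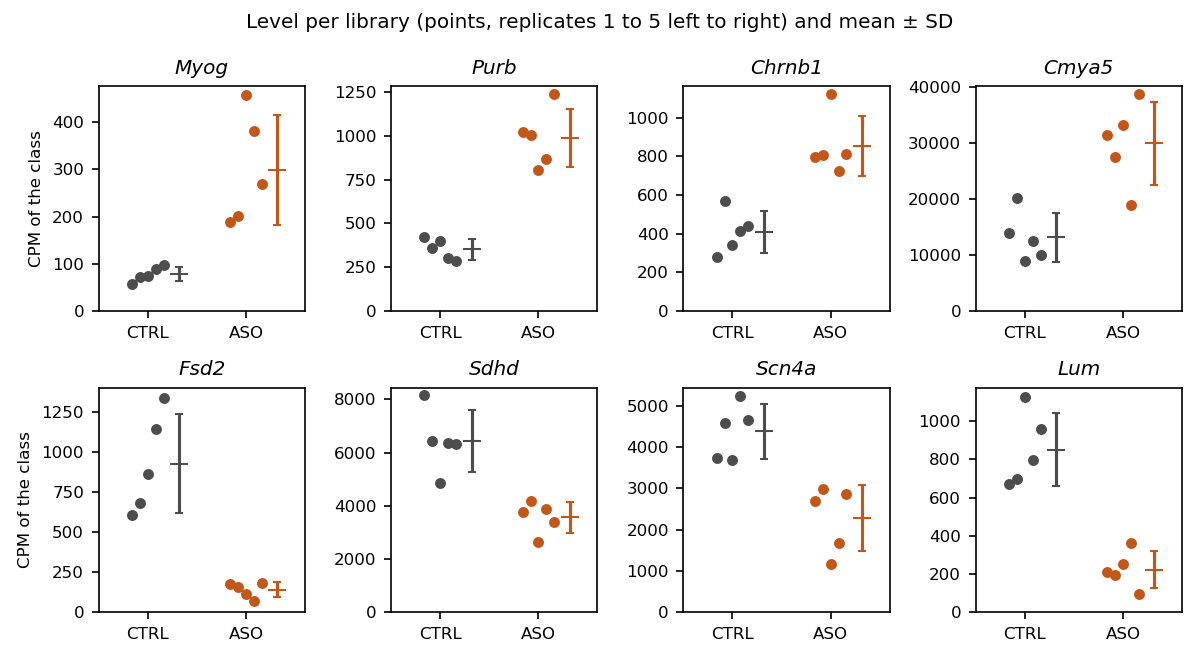
Levels of 8 members in every library, in CPM of the class on axes that start at 0, with grey points for CTRL, orange points for the ASO, and the mean ± SD beside them. In 7 of the 8, the groups do not overlap, and for Cmya5 the lowest treated library, at 18909 CPM, is below the highest control, at 20224 CPM.

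The largest falls were steeper. Of these 12 segments, 6 overlapped an exon of another gene in the same direction and 5 others ended over 500 bp before the last annotated end. Fsd2 (chr7:81183056-81183555, minus strand), a muscle protein with fibronectin type III and SPRY domains, was at 606, 683, 865, 1144 and 1339 CPM in CTRL 1 to 5 and 179.6, 156, 116, 72.5 and 183 CPM in ASO 1 to 5. The highest treated library, ASO 5, was far below the lowest control, CTRL 1 (log2 fold change -2.72 ± 0.29 (SE), adjusted p = 4.7e-05), and 629 bp of annotated transcript follow the segment. Uprt, a homolog of uracil phosphoribosyltransferase, was at 33.4, 39.9, 74.7, 59.9 and 96.3 CPM in CTRL 1 to 5 and 0, 0, 5.50, 5.58 and 2.28 CPM in ASO 1 to 5 (log2 fold change -4.28 ± 0.58 (SE), adjusted p = 0.00015), with 4737 bp annotated beyond it. Fsaf1, Fam120c and F830016B08Rik likewise ended 1528, 2296 and 2572 bp before the last annotated end, with log2 fold changes of -2.39, -2.33 and -2.29 (adjusted p = 0.00037, 0.0033 and 0.0079). Without ASO 2 the value of Fam120c was -3.23, and without ASO 1 that of F830016B08Rik was -2.88.

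Gm69672, whose segment lies wholly on an exon of Rptor, held 125 counts over the CTRL libraries and 2 over the ASO libraries, a ratio of 81.9 with an exact 95% interval of 22.2 to 684 that covers counting error only. Gm37988 (27 bp on Tcea1), Smim46 (62 bp on Prkaca), Gm58920 (500 bp on Mid1) and Gm49325 (358 bp, on Ube2g2 and Mir1930) had log2 fold changes of -2.73, -2.52, -2.31 and -2.27 (adjusted p = 0.0004, 9.6e-05, 0.0018 and 0.00022). H1f4, a linker histone, shares its 500 bp with H2bc6 and Gm11398 (log2 fold change -2.05 ± 0.34 (SE), adjusted p = 0.00055). The remaining 1, Arsb, a lysosomal sulfatase, was at 54.9, 51.6, 224, 63.0 and 40.4 CPM in CTRL 1 to 5 and 18.4, 31.1, 11.0, 31.6 and 11.4 CPM in ASO 1 to 5, with CTRL 3 far above the other controls (log2 fold change -2.05 ± 0.51 (SE), adjusted p = 0.0074, and -1.32 without that library). Among the 12 largest rises, 1 segment overlapped an exon on its own strand and 2 ended more than 500 bp before the last annotated end.

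The steepest values among called members rested on few libraries, and these 2 members were chosen after their values were seen. 4930571K23Rik had no count in any ASO library, and 98 of its 120 counts in CTRL came from CTRL 5. 1700029F12Rik likewise had no count with the ASO, and 72 of its 82 counts came from CTRL 5. In CTRL 1 and CTRL 2 both were also at 0, and no fold is given.

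Annotation at and after the segment went along with the calls. Of the 72 members with an exon of another gene on their own strand, 8 were higher and 27 lower, which is 48.6% called beside 14.8% of all members. Of the 1822 members without any such exon on either strand, 104 were higher and 136 lower (13.2%). The 260 members with an exon on the opposite strand gave 23 in each direction. Where the segment ended within 100 bp of the last annotated end of its gene, 94 members were higher and 104 lower among 1381, and where more than 500 bp were annotated beyond it, 27 were higher and 70 lower among 603. The polyadenylation hexamer AATAAA was in the last 60 bases of 1492 members, of which 87 were higher and 103 lower, and missing there in 652, of which 47 were higher and 81 lower. Among the 1175 members that met both conditions, no other exon and an end within 100 bp of the last one, 73 were higher and 71 lower, with a median of 0.00. With the scaling taken over these 1175 alone, 63 were higher and 82 lower. These shares are counts and were not tested against each other.

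**Figure D3:**
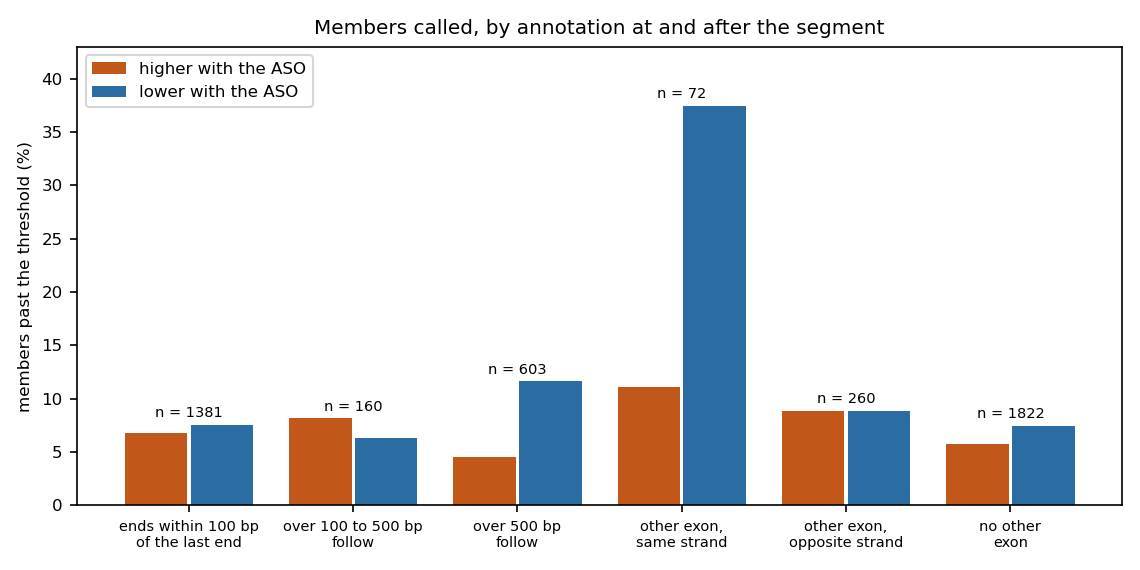
Share of members past the threshold in percent (y axis, from 0), higher in orange and lower in blue, by how much annotated transcript follows the segment and by overlap with exons of other genes, with the number of members above each pair. The largest bar is the 37.5% lower among the 72 members that share sequence with another gene on the same strand.

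Of the 8 most abundant members, 4 rose, where 6.25% of all members and 11.8% of those at 353 CPM and above were higher. Cmya5 (myospryn, a costameric protein of muscle) was at 13942, 20224, 8918, 12579.5 and 10018 CPM in CTRL 1 to 5 and 31479, 27465, 33194, 18909 and 38689 CPM in ASO 1 to 5. Only ASO 4 was below the highest control, CTRL 2 (log2 fold change 1.19 ± 0.25 (SE), adjusted p = 0.0024). Selenow, a small selenoprotein abundant in muscle, ranged over 13959 to 20536 CPM in CTRL and 16235 to 34768 CPM with the ASO (log2 fold change 0.65 ± 0.21 (SE), adjusted p = 0.028), Hjv, the BMP co-receptor hemojuvelin, over 7239.6 to 11727 CPM in CTRL and 10682 to 20860.5 CPM with the ASO (log2 fold change 0.63 ± 0.20 (SE), adjusted p = 0.029), and Hspb8, a small heat shock protein of chaperone-assisted autophagy, over 6957 to 11558 CPM in CTRL and 10174 to 16221 CPM with the ASO (log2 fold change 0.62 ± 0.19 (SE), adjusted p = 0.023). Leaving out ASO 1, ASO 5 or CTRL 4 ended each of these last 3 calls, and leaving out CTRL 3 ended those of Selenow and Hjv (adjusted p up to 0.082). Plain member totals also ended the calls of Selenow, Hjv and Hspb8. Beyond the Hjv segment, 2970 bp are annotated. Carbonic anhydrase 3 (Car3), the small heat shock protein Hspb6 and citrate synthase (Cs) had log2 fold changes of -0.20, -0.17 and 0.27 and did not pass the test (adjusted p = 0.72, 0.71 and 0.2), and with TMM factors over all segments the signs of Car3 and Hspb6 turned and Cs passed (0.52, adjusted p = 0.031). Scd1, which desaturates fatty acids and is high in adipocytes, was at 368, 7594, 61759, 9583 and 4379.7 CPM in CTRL 1 to 5 and 19341, 3679, 4194, 5331 and 731 CPM in ASO 1 to 5. Its spread covered the difference (log2 fold change -1.33 ± 1.00 (SE), adjusted p = 0.33), and its value in CTRL 3 moved with the adipocyte markers there.

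Muscle regulators were called in both directions. Of 16 transcription factors of muscle, 2 were higher (Purb and Myog) and 2 lower (25% called, beside 14.8% of all members). Myf6, the myogenic factor of mature fibers, ranged over 1585 to 1914 CPM in CTRL and 1138 to 1477 CPM with the ASO (log2 fold change -0.42 ± 0.13 (SE), adjusted p = 0.027), and Vgll4, a cofactor of TEAD factors, over 181 to 369.6 CPM in CTRL and 53.2 to 203 CPM with the ASO (log2 fold change -1.15 ± 0.34 (SE), adjusted p = 0.018). The Myf6 call was lost without ASO 1, ASO 5, CTRL 1, CTRL 2, CTRL 4 or CTRL 5 (adjusted p up to 0.07), and that of Vgll4 without ASO 5 or CTRL 5 (adjusted p up to 0.05). Myod1, which commits cells to the muscle lineage, was at 219.7, 209, 296, 514 and 363 CPM in CTRL 1 to 5 and 288, 749, 750.3, 327 and 459 CPM in ASO 1 to 5. The groups overlapped, and the difference did not pass (log2 fold change 0.69 ± 0.32 (SE), adjusted p = 0.11). With TMM factors over all segments it did (0.96, adjusted p = 0.028), whereas that scaling ended the Myf6 call (-0.17, adjusted p = 0.41).

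Of 12 sarcomere and cytoskeleton genes, 3 were higher and none was lower at the same threshold (25% called, beside 14.8% of all members). Their median was 0.36 beside -0.02 for all members. Klhl31, a Kelch protein required for muscle structure, was at 4964, 5942, 2855, 3522 and 2656 CPM in CTRL 1 to 5 and 11505, 8024, 8191, 5063 and 9467 CPM in ASO 1 to 5 (log2 fold change 1.08 ± 0.26 (SE), adjusted p = 0.006). Myom2, an M-band protein, was at 5468, 7132, 3354, 4829.5 and 4858 CPM in CTRL 1 to 5 and 10809, 9919, 12049, 5217 and 11663 CPM in ASO 1 to 5 (log2 fold change 0.95 ± 0.25 (SE), adjusted p = 0.0084). In both, ASO 4 was the only treated library inside the range of the controls. Mylk2, the kinase of the skeletal myosin regulatory light chain, ranged over 7149 to 10343 CPM in CTRL and 7628 to 16881 CPM with the ASO (log2 fold change 0.60 ± 0.21 (SE), adjusted p = 0.038), and its call was lost without ASO 1, ASO 2, ASO 3, ASO 5, CTRL 1, CTRL 2 or CTRL 3 (adjusted p up to 0.099). In bulk muscle, fewer cells of a type and less RNA per cell cannot be told apart. The summed skeletal muscle markers were higher with the ASO as well (mean 596044 CPM against 400336 CPM in CTRL), and their part in these values was not tested.

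Among 27 genes of excitation and calcium handling, 4 were higher and 1 was lower (18.5% called, beside 14.8% of all members, median -0.06). Scn4a, the voltage-gated sodium channel that fires the muscle action potential, was at 3732, 4575, 3690.5, 5233 and 4644 CPM in CTRL 1 to 5 and 2683, 2989, 1181, 1676 and 2854 CPM in ASO 1 to 5. All treated libraries were below all controls (log2 fold change -0.94 ± 0.24 (SE), adjusted p = 0.0083). Chrnb1 rose as given above, and Kcnj11, the pore of the ATP-sensitive potassium channel, ranged over 886 to 1631 CPM in CTRL and 1497 to 2701 CPM with the ASO (log2 fold change 0.64 ± 0.20 (SE), adjusted p = 0.024). Sypl2 (mitsugumin 29), a triad membrane protein, was low in every library, at 3.15 to 13.3 CPM in CTRL and 11.5 to 47.7 CPM with the ASO (log2 fold change 1.59 ± 0.47 (SE), adjusted p = 0.019), and the potassium channel Kcna5 had a log2 fold change of 0.81, adjusted p = 0.048. Leaving out ASO 3 ended the Sypl2 call (adjusted p = 0.055), leaving out ASO 5 that of Kcnj11 (adjusted p = 0.068), and that of Kcna5 was lost without ASO 3, ASO 4, ASO 5, CTRL 1, CTRL 3, CTRL 4 or CTRL 5 (adjusted p up to 0.13).

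Beside the 14.8% called among all members, 15.4% were called in the oxidative phosphorylation list, 21.4% in mitochondrial translation and 13.6% in mitochondrial import, carriers and dynamics. None of 13 oxidative phosphorylation genes was called higher and 2 were lower, with a median of 0.13. Sdhd (chr9:50507657-50508156, minus strand), a membrane anchor subunit of complex II, was at 8166, 6423, 4870.0, 6370.1 and 6339.7 CPM in CTRL 1 to 5 and 3760.4, 4175, 2653, 3873 and 3384 CPM in ASO 1 to 5. The highest treated library was below the lowest control, and the means were 6434 ± 1168 CPM in CTRL and 3569 ± 585 CPM with the ASO (SD, n = 5 each) (log2 fold change -0.85 ± 0.18 (SE), adjusted p = 0.0022). Coa7, an assembly factor of the respiratory chain, had a log2 fold change of -0.77, adjusted p = 0.017, and its call was lost without CTRL 4 (adjusted p = 0.052) and with TMM factors over all segments (adjusted p = 0.071). Of 14 genes of mitochondrial translation, 1 was higher and 2 lower. Mrps7, a protein of the small mitochondrial ribosomal subunit, was higher without overlap (log2 fold change 0.83 ± 0.22 (SE), adjusted p = 0.011), and its segment lies wholly opposite an exon of Mif4gd. The 2 lower ones had few counts, and their groups overlapped. Mrpl19, a protein of the large mitochondrial ribosomal subunit, ranged over 2.39 to 53.6 CPM in CTRL and 2.28 to 13.8 CPM with the ASO (log2 fold change -2.19 ± 0.66 (SE), adjusted p = 0.021), with 397 bp of its segment opposite an exon of Gcfc2. Mtrf1l, a mitochondrial release factor, ranged over 14.1 to 31.1 CPM in CTRL and 1.83 to 16.6 CPM with the ASO (log2 fold change -1.76 ± 0.56 (SE), adjusted p = 0.027), and 2293 bp are annotated beyond its segment. The Mrpl19 call was lost without ASO 5 or CTRL 4 (adjusted p up to 0.061) and with limma-voom (adjusted p = 0.15), and that of Mtrf1l without ASO 1, ASO 3, ASO 4, ASO 5, CTRL 4 or CTRL 5 (adjusted p up to 0.069). Of 22 genes of mitochondrial import, carriers and dynamics, 1 was higher and 2 lower. The import factors Timm8a1 (log2 fold change -1.27 ± 0.25 (SE), adjusted p = 0.0016) and Timm17a (log2 fold change -1.11 ± 0.28 (SE), adjusted p = 0.0073) were below every control in every treated library, and 4274 and 5942 bp are annotated beyond their segments.

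Of the citric acid cycle and fatty acid oxidation list of 18, 11.1% were called. Pdk2, the kinase that inhibits pyruvate dehydrogenase, ranged over 4512 to 7087 CPM in CTRL and 7397 to 12330.0 CPM with the ASO without overlap (log2 fold change 0.64 ± 0.18 (SE), adjusted p = 0.013), and the β-oxidation enzyme Echs1 was lower (log2 fold change -0.57 ± 0.17 (SE), adjusted p = 0.016). With TMM factors over all segments, the Echs1 call was lost (-0.32, adjusted p = 0.14). Of 14 glycolysis and glycogen genes, none passed in either direction with this test, and their median was -0.22. Of 5 cytosolic ribosomal proteins, Rpl37 was higher (log2 fold change 0.82 ± 0.15 (SE), adjusted p = 0.00094), with 5255 bp annotated beyond its segment. Of 16 translation factors and tRNA synthetases (12.5% called), Eif4ebp2 was higher and Eif2s1, the α subunit of eIF2, lower (log2 fold change -1.41 ± 0.36 (SE), adjusted p = 0.0083). The Eif2s1 segment shares 373 bp with Plek2 on the opposite strand.

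Of 63 ubiquitin ligases and deubiquitinases, 7 were higher and 6 lower (20.6% called), beginning with the adaptors Fbxo38 (-0.96, adjusted p = 0.0022) and Klhl9 (-0.94, adjusted p = 0.0024), which were lower, and the ligase Rnf187 (0.65, adjusted p = 0.0034), which was higher. Of 22 proteasome and chaperone genes, 2 were higher and 1 was lower (13.6%). The lower one, Dnajc3, an endoplasmic reticulum co-chaperone that inhibits PERK, was at 337, 321, 371, 353 and 357 CPM in CTRL 1 to 5 and 108, 199, 80.7, 216 and 121 CPM in ASO 1 to 5 (log2 fold change -1.26 ± 0.24 (SE), adjusted p = 0.0015). Of 40 protein kinases, 6 were higher and 2 lower (20% called). Mapkapk2, a kinase downstream of p38, ranged over 1593 to 2684 CPM in CTRL and 2771 to 4165 CPM with the ASO (log2 fold change 0.78 ± 0.18 (SE), adjusted p = 0.0041), whereas Map3k3, an upstream kinase of MAPK cascades, ranged over 222 to 332 CPM in CTRL and 67.9 to 158 CPM with the ASO (log2 fold change -1.20 ± 0.22 (SE), adjusted p = 0.00099) and Stk24 had a log2 fold change of -1.25, adjusted p = 0.00065. The Stk24 segment lies wholly opposite an exon of Farp1. Of 31 phosphatases, 1 was higher and 2 were lower (9.68%). These shares lie on both sides of that over all members. The MAPK phosphatase Dusp4 was at 16.7, 23.5, 74.7, 18.9 and 31.1 CPM in CTRL 1 to 5 and 2.30, 4.15, 5.50, 3.72 and 0 CPM in ASO 1 to 5 (log2 fold change -3.23 ± 0.61 (SE), adjusted p = 0.0012), and Dusp10 ranged over 376 to 677 CPM in CTRL and 264 to 402 CPM with the ASO (log2 fold change -0.75 ± 0.19 (SE), adjusted p = 0.0075), a call lost with TMM factors over all segments (adjusted p = 0.062).

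Nuclear regulators were the list with the most members. Of 125 zinc finger and other transcription factors, 4 were higher and 11 lower (12% called, beside 14.8% of all members), with a median of 0.07. Zfp664 was at 210.1, 209, 254, 217 and 217 CPM in CTRL 1 to 5 and 106, 95.5, 127, 119 and 98.2 CPM in ASO 1 to 5 (log2 fold change -1.02 ± 0.15 (SE), adjusted p = 0.0003), and Zfp526 fell further at a lower level, over 23.9 to 65.2 CPM in CTRL and 5.50 to 11.5 CPM with the ASO (log2 fold change -2.27 ± 0.39 (SE), adjusted p = 0.00071). Stat2, a transducer of type I interferon signals, was higher (log2 fold change 0.86 ± 0.20 (SE), adjusted p = 0.0049), as was E2f4, a repressor of cell cycle genes (log2 fold change 0.85 ± 0.20 (SE), adjusted p = 0.005). Of 24 chromatin modifiers, 3 were higher and 4 lower (29.2% called). Kdm6b, the H3K27 demethylase, ranged over 169.5 to 279.6 CPM in CTRL and 329 to 486 CPM with the ASO (log2 fold change 0.91 ± 0.18 (SE), adjusted p = 0.0018). Baz1b and the histone variant H2ax were higher (0.57 and 0.67, adjusted p = 0.014 and 0.016), and the segments of the linker histone genes H1f4 and H1f2 lower (-2.05 and -0.60, adjusted p = 0.00055 and 0.014). The whole H1f4 segment is shared with H2bc6 and Gm11398, as given above. The H1f2 call was lost with TMM factors over all segments (adjusted p = 0.099).

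Some genes of the machinery that makes or uses microRNAs were among the members. Of 43 genes of RNA processing and microRNA biogenesis, 4 were higher and 3 lower (16.3% called, beside 14.8% of all members). Dicer1, which cuts microRNA precursors, was at 162, 155, 125, 135 and 124 CPM in CTRL 1 to 5 and 187, 218, 242, 203 and 297 CPM in ASO 1 to 5. Its groups did not overlap (log2 fold change 0.70 ± 0.17 (SE), adjusted p = 0.0066). Dgcr8, the partner of Drosha, ranged over 65.2 to 88.2 CPM in CTRL and 100.4 to 137 CPM with the ASO (log2 fold change 0.60 ± 0.18 (SE), adjusted p = 0.022). Its segment lies wholly opposite an exon of Trmt2a, and its call was lost without ASO 5 (adjusted p = 0.058). Other members of this machinery did not pass. Ago2, Ago4, Xpo5 and Prkra had log2 fold changes of 0.35, 0.23, 0.26 and -0.53 (adjusted p = 0.15, 0.61, 0.26 and 0.15). The RNA helicase Ddx3x, at 1239 to 1753 CPM in CTRL and 632 to 1007 CPM with the ASO, was lower (log2 fold change -0.88 ± 0.16 (SE), adjusted p = 0.0011).

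Of 25 genes of glycosylation, 1 was higher and 2 were lower (12% called), and of 20 genes of autophagy, lysosome and mTOR restraint, 1 was called in each direction (10%). Vesicle traffic had 2 higher and 7 lower among 63, or 14.3% called, close to the share of all members. Tbc1d8b, a Rab GTPase-activating protein, was at 81.2, 82.1, 77.4, 91.4 and 77.7 CPM in CTRL 1 to 5 and 29.9, 33.2, 5.50, 26.0 and 27.4 CPM in ASO 1 to 5 (log2 fold change -1.75 ± 0.34 (SE), adjusted p = 0.0016). The ESCRT-III subunit Chmp4b (-0.82, adjusted p = 0.0035) and the retromer subunit Vps35 (-0.65, adjusted p = 0.0049) were lower, and the SNARE Stx16 was higher (0.66, adjusted p = 0.0053).

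The extracellular matrix list had 7 members lower and 2 higher among 36 (19.4% and 5.56%, beside 8.58% and 6.25% of all members), and its median log2 fold change was -0.62. Lum (lumican, chr10:97408066-97408565, plus strand), a proteoglycan that organizes collagen fibrils, was at 671, 699, 1123, 797 and 957 CPM in CTRL 1 to 5 and 209.6, 195, 253, 361 and 95.9 CPM in ASO 1 to 5. The highest treated library, ASO 4, was well below the lowest control, CTRL 1 (log2 fold change -1.92 ± 0.29 (SE), adjusted p = 0.00026). Nid1, the basement membrane linker nidogen, ranged over 712 to 2306 CPM in CTRL and 249 to 744 CPM with the ASO (log2 fold change -1.50 ± 0.36 (SE), adjusted p = 0.006), Col6a3, a chain of microfibrillar collagen VI, over 521 to 1230.2 CPM in CTRL and 171 to 565 CPM with the ASO (log2 fold change -1.09 ± 0.32 (SE), adjusted p = 0.017), and Col4a4, of basement membrane collagen IV, over 11.9 to 28.2 CPM in CTRL and 0 to 11.4 CPM with the ASO (log2 fold change -1.86 ± 0.56 (SE), adjusted p = 0.02). The gelatinase Mmp9 held 66 counts over the CTRL libraries and 3 over the ASO libraries, all in ASO 2, a ratio of 28.8 (exact 95% interval 9.45 to 143, counting error only). Of the 66 counts, 35 came from CTRL 3, and the call remained without that library (adjusted p = 0.0067) and without ASO 2 (adjusted p = 0.0041).

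Thbs1 (thrombospondin 1) and Col3a1, the fibrillar collagen III chain, passed with all 10 libraries (-1.91, adjusted p = 0.045, and -1.39, adjusted p = 0.047), but not without ASO 1, ASO 2, ASO 3, ASO 5, CTRL 4 or CTRL 5, and for Col3a1 also CTRL 3 (adjusted p up to 0.21). For Thbs1, the value was -1.01 without CTRL 5 and -3.0 without ASO 4. Col11a2 and Mmp15 were higher (1.42 and 0.66, adjusted p = 0.012 and 0.019), and the Mmp15 call was lost without ASO 1 (adjusted p = 0.056). The chains of collagen I did not pass, Col1a1 at 203 to 344 CPM in CTRL and 68.5 to 616 CPM with the ASO (0.15, adjusted p = 0.8) and Col1a2 at 287 to 801 CPM in CTRL and 158 to 949 CPM with the ASO (-0.25, adjusted p = 0.66), and their signs turned under other settings.

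Without ASO 4, which had the highest level of Col1a1, Col1a2, Lum and Col3a1 among treated libraries, 14 members of the list were lower. With TMM factors over all segments, 4 were lower and the median was -0.33, and among members with at least 10 counts in every library 3 were lower and the median was -0.32. Without CTRL 3 the count stayed at 7. The calls of Col6a3, Thbs1 and Col3a1 were lost with TMM factors over all segments (adjusted p = 0.054, 0.076 and 0.092). The summed fibroblast markers were 1249 to 2639 CPM in CTRL and 343 to 2091 CPM with the ASO, with Dcn at 0, and 4 of these 6 markers are members of the matrix list. Summed macrophage markers were 1509 to 10058 CPM in CTRL, and Adgre1 and Cd163 were at 0 everywhere. Of the macrophage markers, 2 were members, Mrc1, which was lower (-1.73, adjusted p = 0.015, and -1.12, adjusted p = 0.046, without CTRL 3, but adjusted p = 0.054 with limma-voom), and Lyz2, which did not pass (-1.10, adjusted p = 0.14). The endothelial members Kdr and Cdh5 (0.28 and 0.16, adjusted p = 0.45 and 0.64) and the adipocyte member Lep (-1.78, adjusted p = 0.22) did not pass. The part of cell makeup in the matrix values was not tested.

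**Figure D4:**
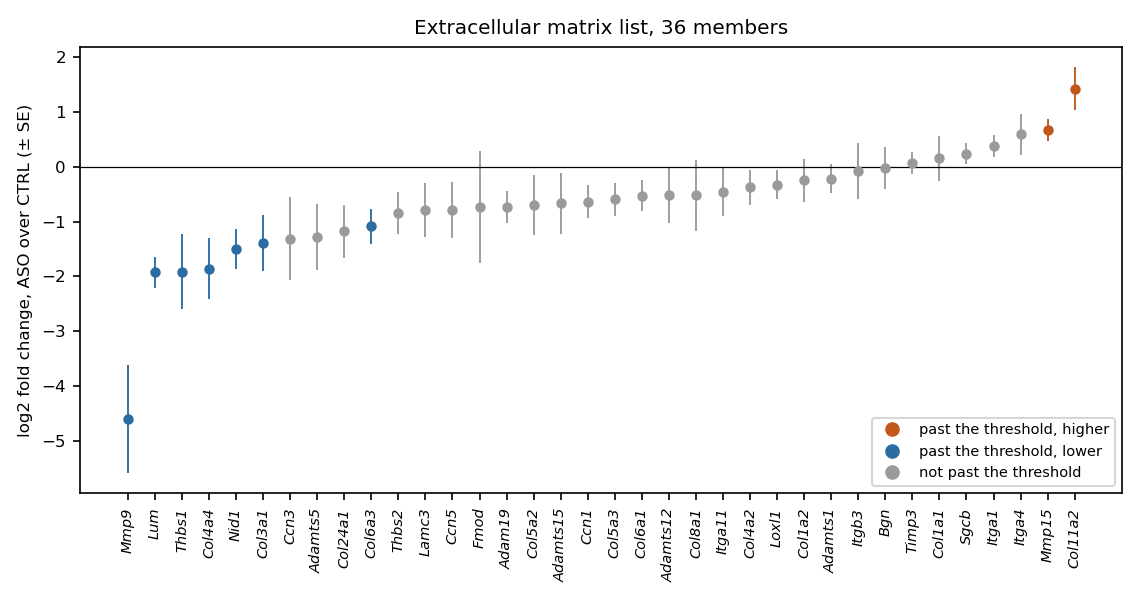
Log2 fold change ± SE (ASO over CTRL, y axis) of the 36 members of the extracellular matrix list, ordered by value, with 7 called lower in blue, 2 called higher in orange and the others in grey. Most values lie below 0, and the list's median is -0.62.

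Among the 104 members with the miR-22 seed match shown above, 9 were higher and 11 lower, and among the 2040 without it 125 were higher and 173 lower. The median log2 fold change was 0.05 with a match and -0.03 without, a difference of 0.08. Of the 7 members whose sites are printed, Tpcn1, an endolysosomal channel, was at 699.6, 609.9, 598, 627 and 528 CPM in CTRL 1 to 5 and 976, 1077, 1009, 1021 and 1251 CPM in ASO 1 to 5 without overlap (log2 fold change 0.80 ± 0.14 (SE), adjusted p = 0.00073), and Arhgap10 rose by 0.65 (adjusted p = 0.017). Myom2, Fsd2, Map3k3, Mmp9 and Dusp10 have their values above. Among the matched members with the smallest p, Gm58920, Gm49387, Gm28374 and Gm21981 lie on exons of Mid1, Colq, Vps51 and Tomm6.

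A shorter match, GCAGCT, was in 329 members, of which 28 were higher and 24 lower (median 0.05). The match followed by A was in 18, with 3 higher, 2 lower and a median of 0.32. The same 7 letters on the other strand, AGCTGCC, which are those of the seed and not of its match, were in 130 members, with 12 higher, 10 lower and a median of 0.09. In each library, the median deviation of matched members less that of the others was between -0.11 and 0.09 in CTRL and between -0.05 and 0.08 with the ASO, so the groups overlapped. Matched segments also had a higher median GC content, 47.6% against 42.2%. Of 5 members among the reported targets of miR-22, Purb rose, and its segment, which covers 500 of the 7316 bp of its 3′UTR, holds neither the 7-letter nor the 6-letter match. Ddit4, Erbb3, Tet3 and Mdc1 had log2 fold changes of 0.48, 0.48, 0.20 and 0.11, and none of these 4 passed (adjusted p = 0.34, 0.35, 0.52 and 0.76). The Ddit4 segment does hold the 7-letter match. Ddit4 was at 305 CPM in ASO 4 and at 95.4 to 116 CPM in the other treated libraries.

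Over the whole class, the change went along with base composition. The members were ordered by the GC content of the segment and cut into 4 bins of like size. In the bin with the lowest GC content (23.6% to 36.8%), 7 were higher and 67 lower among 542, with a median of -0.22. In the bin with the highest (48.4% to 70.2%), 70 were higher and 29 lower among 529, with a median of 0.10. The middle bins gave 25 higher and 51 lower, and 32 higher and 37 lower. Called higher members had a median GC content of 48.7%, called lower members 39.6% and all members 42.4%. Spearman's rho between GC content and log2 fold change was 0.22 over the 2144 members and 0.26 over the 1175 without another exon and near the last end, given without a p because members share libraries.

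The shift was present library by library. The median deviation of the highest bin less that of the lowest, on the log2 scale, was -0.26, -0.31, -0.12, -0.12 and -0.08 in CTRL 1 to 5 and 0.31, 0.01, 0.03, 0.12 and 0.45 in ASO 1 to 5. The groups did not overlap, with ASO 1 and ASO 5 highest and ASO 2 and ASO 3 close to the controls. Single members went with or against this shift. Lum, at 31.6% GC, was lower, and Tpcn1, at 56.8% GC, was higher, while Purb, at 38.4% GC, was higher. Library depth also differed between the groups without overlap, and the part of composition or depth in the calls was not tested. Level went along with the change to a like extent (rho 0.21), 3′UTR length hardly did (0.03), and among the members with the highest levels (353 CPM and above) the lowest GC bin had 4 higher and 14 lower among 113 and the highest bin 33 higher and 6 lower among 158.

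**Figure D5:**
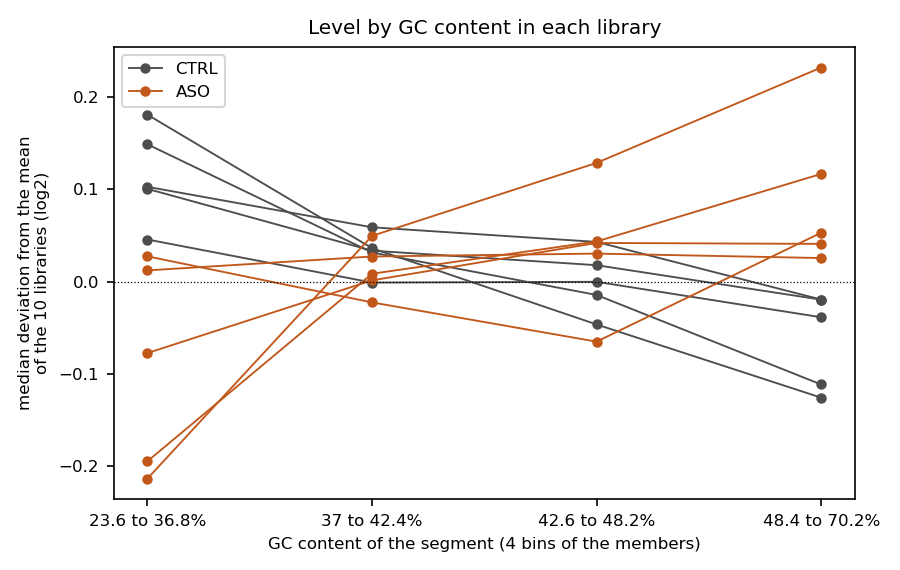
Median deviation of the members in each library from their mean over the 10 libraries (log2, y axis) for 4 bins of segment GC content (x axis), with CTRL libraries in grey and ASO libraries in orange. From the lowest to the highest bin, every CTRL line falls and every ASO line ends above its start, by 0.01 to 0.45.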

How the data were processed

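GAS of 5 ASO and 5 CTRL mice was sequenced with stranded poly(A) libraries as paired ends. The authors deposited counts of read pairs per segment, made with fastp, STAR on GRCm39 and featureCounts (Gencode M25), kept only for the final 500 bp of each 3′UTR and not normalized. Tool versions are not given in the labels used here, and 4 other per-sample columns were not used. Transcript identifiers were matched to GENCODE M39 on GRCm39 (52361 of 52423 found). Coordinates are 1-based.

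Every segment with at least 50 counts was fitted with edgeR 4.0.16 (R 4.3.3) by the quasi-likelihood test with group alone, with library sizes set to the class total times the TMM factor over the members. p-values were Benjamini-Hochberg adjusted over the 12905 segments, with 0.05 as threshold. SE is the absolute log2 fold change over the square root of F. The study used DESeq2, here an alternative (1.42.0), beside limma-voom (3.58.1), other scalings and filters, libraries drawn down to the smallest total, a replicate block and leaving out each library. Deviations per library use log2(CPM + 1). The fit was tested on simulated counts. Depth was 1606909 to 2632560 counts per library. Intervals cover counting error only.

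Members, gene lists and tests were chosen with earlier results of these data known, so no list is independent evidence. Named are the 12 largest rises and falls whose groups did not overlap and which averaged at least 10 counts in a library, up to 6 called members of a list by p, members the study names, the 8 highest in level, those nearest the minimum, matched members by p (8 in each direction at most) and markers. 1 member that the rule names is not reported here. No set test was run. Python 3.11.15 with pandas 2.3.3 and scipy 1.17.1 served for the rest.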

Additional observations from a re-analysis of the deposited data

Results flagged for a closer look

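In a group of 5 libraries, 1 library was singled out where its gap to the nearest other was more than 0.71 of the range (Dixon's 95% value). Of 230 groups tested, chance would single out about 1 in 20, or 11.5, and 25 were singled out. In CTRL 3, these were Scd1 at 61759 CPM (others up to 9583), Lep at 9879 CPM (others up to 1830), Lyz2 at 4552 CPM (others up to 1629), Col6a3 at 1230.2 CPM (others up to 699), Gm21981 at 640.4 CPM (others up to 535), Zfp664 at 254 CPM (others up to 217), Arsb at 224 CPM (others up to 63.0) and Dusp4 at 74.7 CPM (others up to 31.1). All of these were above the other controls, and the adipocyte and macrophage markers were highest in this library. In CTRL 5 they were Rnf187 at 1618 CPM (others up to 1427) and Thbs1 at 466 CPM (others up to 112), and in CTRL 1 Mrps7 at 57.3 CPM (others up to 45.4).

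Among ASO libraries, ASO 4 was singled out for Col1a2 at 949 CPM (others up to 368), Ogn at 411 CPM (others up to 199), Ddit4 at 305 CPM (others up to 116) and Thbs1 at 130.2 CPM (others up to 24.9), which were high, and for Hspb8 at 10174 CPM (others from 14486), which was low. ASO 2 had Vps35 at 797 CPM (others up to 592), Fam120c at 37.4 CPM (others up to 11.4), Mtrf1l at 16.6 CPM (others up to 4.61) and Mmp9 at 6.23 CPM (others at 0). ASO 3 had Chrnb1 at 1123 CPM (others up to 813) and Tbc1d8b at 5.50 CPM (others from 26.0). ASO 1 had Scd1 at 19341 CPM (others up to 5331) and Mdc1 at 59.9 CPM (others from 74.7), and ASO 5 had Stat2 at 128 CPM (others from 163).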

How the results depend on the processing

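The members' split held its sides within 1.5 times (134 higher, 184 lower) with RLE or upper quartile scaling, without the 20 highest members, with DESeq2 (137 and 177), limma-voom (129 and 171), a minimum of 200 counts, edgeR's filter by group, no filter, drawn-down libraries and members free of other exons. It moved with TMM over all segments (409 and 94), with plain totals (84 higher), with at least 10 counts in every library (126 and 120 of 1473 members tested, so that more were higher than lower) and, added after seeing the data, in the 1175 members at the last annotated end without another exon (63 and 82, fewer members by construction). There the scaling was taken over these 1175 alone, and the main scaling gave 73 higher and 71 lower among them. Leaving out each library gave 79 to 168 higher, the lowest without ASO 5, and 124 to 217 lower. The replicate block gave 101 higher and 139 lower. Samples of the same number did not deviate together (correlations -0.42, 0.09, 0.07, 0.03 and 0.23), and not every sample correlated best with its own number, so the numbers were not taken as pairs.

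The difference with and without a seed match was 0.02 to 0.11 over the libraries left out. The counts of the matrix list without each library were added after seeing the data. Of 95 named members past the threshold, 78 stayed past it whichever library was left out, and none turned sign in any alternative. Calls were also lost with TMM over all segments (8: Myf6, Coa7, Echs1, Dusp10, H1f2, Col6a3, Thbs1 and Col3a1), plain totals (7: Exoc3l2, Selenow, Hjv, Hspb8, Mylk2, Kcnj11 and Kcna5), limma-voom (6: Sypl2, Kcna5, Mrc1, Sfrp2, Egr1 and Mrpl19), the replicate block (7: Exoc3l2, Myf6, Mylk2, Kcna5, Dgcr8, Mmp15 and Mrpl19) and no filter (4: Exoc3l2, Myf6, Kcna5 and Dgcr8). DESeq2, the minimum of 200 counts and the 1175 members at the last annotated end each ended that of Kcna5, and drawn-down libraries that of Dgcr8. Signs turned for members that had not passed: with TMM over all segments Car3 (0.094), Hspb6 (0.12), Eif2ak2 (0.058) and Col1a2 (0.038), for Col1a1 with limma-voom (-0.11) and the replicate block (-0.087), and when single libraries were left out for Car3 (-0.38 to 0.11), Scd1 (-2.26 to 0.28, the highest without CTRL 3), Eif2ak2 (-0.37 to 0.032), Ube2l6 (-0.082 to 0.33), Cdh5 (-0.043 to 0.30) and Col1a1 (-0.35 to 0.40). The cause of these moves was not tested. Members near 50 counts hold about 5 counts per library, which limits their precision.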

Other observations

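The members below were chosen after their values were seen. They belong to no list, and how many like genes did not pass was not counted. Abca8a, a lipid transporter, was at 509, 298, 440.3, 517 and 540.5 CPM in CTRL 1 to 5 and 131, 149, 149, 249 and 201 CPM in ASO 1 to 5 (log2 fold change -1.38 ± 0.22 (SE), adjusted p = 0.00039). Dpep1, a membrane dipeptidase, ranged over 293 to 669.8 CPM in CTRL and 123 to 189.7 CPM with the ASO (log2 fold change -1.37 ± 0.24 (SE), adjusted p = 0.00073). In both, the groups did not overlap. Ogn (osteoglycin), a small leucine-rich proteoglycan, ranged over 338 to 798 CPM in CTRL and 130.2 to 411 CPM with the ASO (log2 fold change -1.36 ± 0.33 (SE), adjusted p = 0.0056), the chemokine Ccl11 over 263 to 662 CPM in CTRL and 116 to 311 CPM with the ASO (log2 fold change -1.21 ± 0.28 (SE), adjusted p = 0.0046), and the secreted Wnt antagonist Sfrp2 over 4.78 to 144 CPM in CTRL and 4.57 to 16.1 CPM with the ASO (log2 fold change -2.73 ± 0.73 (SE), adjusted p = 0.011, and -1.93 without CTRL 3), a call lost with limma-voom (adjusted p = 0.13). Lyve1, a hyaluronan receptor of lymphatic vessels and some macrophages, ranged over 16.4 to 246 CPM in CTRL and 4.57 to 16.5 CPM with the ASO, with CTRL 3 the highest (log2 fold change -3.07 ± 0.67 (SE), adjusted p = 0.0031, and -2.24 without it).

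Ifit1, an interferon-induced gene, was at 28.7, 23.5, 29.4, 47.3 and 15.5 CPM in CTRL 1 to 5 and 50.7, 70.6, 45.9, 85.6 and 54.8 CPM in ASO 1 to 5 (log2 fold change 1.09 ± 0.31 (SE), adjusted p = 0.015), with 4765 bp annotated beyond its segment. Other members known to be induced by interferon did not pass, among them Cmpk2 (-0.34, adjusted p = 0.57), Eif2ak2 (-0.22, adjusted p = 0.63) and Ube2l6 (0.14, adjusted p = 0.79), and no list of such genes was drawn up. Egr1, an immediate early transcription factor, varied widely among controls, from 105 to 1369.8 CPM, and less with the ASO, from 73.4 to 292 CPM (log2 fold change -2.10 ± 0.60 (SE), adjusted p = 0.015), a call lost with limma-voom (adjusted p = 0.054).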
